A study of Mus musculus with 80 samples.

Results

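The insulin-like growth factor (IGF) genes described here comprise the ligand genes Igf1 and Igf2 and the binding protein genes Igfbp1 to Igfbp7. They were taken by gene symbol, 9 of the 32764 genes counted, by a rule that uses no measured value, with earlier results of these data known. RNA was sequenced from 4 tissues of male mice, namely liver, muscle, brown fat (BAT, brown adipose tissue) and inguinal white fat (iWAT), all on a C57BL/6J background. The 4 genotypes were wildtype (WT), UCP1 KO (without uncoupling protein 1, the mitochondrial carrier through which brown fat makes heat), FGF21 KO (without fibroblast growth factor 21, an endocrine factor of liver and fat) and double knockouts lacking both (dKO), each with 5 libraries per tissue and 80 libraries in all. Knockouts were homozygous, and every group, WT included, was bred and kept at 30 °C until an age of 10 to 12 weeks and then received a high-fat diet for 3 weeks at room temperature. The comparisons therefore ask how loss of UCP1 changes the IGF genes when FGF21 is present (UCP1 KO against WT) and when it is absent (dKO against FGF21 KO). The labels call the libraries separate samples without naming mice or tying tissues of 1 mouse together, so the tests measure the spread between these samples.

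IGF1 and IGF2 are secreted peptides that act through the IGF1 receptor, and IGF2 is also cleared by the IGF2 receptor. The liver releases most circulating IGF1 under growth hormone, whose receptor GHR signals through JAK2 and STAT5, while most other tissues make IGFs for local use. The binding proteins hold the ligands in blood and matrix: IGFBP3 forms the main circulating complex with the acid-labile subunit, IGFBP1 is a liver protein that insulin represses, and FGF21 has been reported to raise hepatic IGFBP1 and to dampen growth hormone signalling.

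Library totals ran from 28691377 to 50380696 gene counts (median 38022853), and 0 of 760 pairs of libraries within a tissue held identical values. Of the targeted genes, Fgf21 had 0 to 3 reads in every FGF21 KO and dKO library of all tissues. WT libraries held 51 to 107 reads of it in liver, 7 to 10 in BAT, 2 to 11 in iWAT and 0 to 3 in muscle. It therefore does not check the labels in muscle, and in iWAT and BAT it does so on few reads. Ucp1 followed the labels in BAT, at 3205 to 7556 CPM (counts scaled to a common library total of 1000000) in WT and 5246 to 8074 CPM in FGF21 KO, against 530 to 1238 CPM in UCP1 KO and 1046 to 1883 CPM in dKO, where transcript is still counted. In iWAT it ran against them, at 2.64 to 16.7 CPM in WT, 102 to 735 CPM in UCP1 KO and 4.004 to 29.1 CPM in dKO, so it does not check the labels there, and the groups of iWAT are the libraries so labelled. A label spells the double knockout with FGF12. Some libraries held high levels of marker genes of other tissues, scored as the mean log2(CPM + 0.1) of the markers. In 9 of 20 iWAT libraries (2 WT, 4 FGF21 KO, 1 UCP1 KO and 2 dKO) the lymph node B and T cell score was 6.41 to 7.32, against -0.53 to 1.68 in the others. In 5 of 20 BAT libraries (2 UCP1 KO and 3 dKO) the skeletal muscle score was 6.42 to 9.76, against 1.96 to 5.48 in the others, and in 4 iWAT libraries (WT replicates 4 and 5, FGF21 KO replicate 5 and UCP1 KO replicate 1) it was 6.63 to 10.79, against 1.86 to 5.96. The hepatocyte score was 4.58 in iWAT FGF21 KO replicate 4 and 2.71 in iWAT UCP1 KO replicate 4 (iWAT median 0.29). In muscle FGF21 KO replicate 5 it was 3.74 (muscle median 0.02). These libraries held 8, 5 and 7 reads of Igfbp1, the most outside liver, and the part of liver RNA was not tested. In bulk tissue, fewer cells of a type and less RNA per cell cannot be told apart.

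Several members sit side by side. On GRCm38, Igfbp1 (chromosome 11, 7197782 to 7202546, plus strand) ends 3539 bases from the end of Igfbp3 (7206086 to 7213923, minus strand), and Igfbp2 (chromosome 1, 72824503 to 72852474, plus strand) ends 5457 bases from the end of Igfbp5 (72857932 to 72874884, minus strand). Each pair combines a gene read almost only in liver with one read in all 4 tissues, so their promoters are shown: the 250 bases before the RefSeq transcript start in GRCm38.p6, given 5′ to 3′ on the gene's strand with CG dinucleotides in capitals.
Igfbp1, chr11:7197537-7197786, plus strand: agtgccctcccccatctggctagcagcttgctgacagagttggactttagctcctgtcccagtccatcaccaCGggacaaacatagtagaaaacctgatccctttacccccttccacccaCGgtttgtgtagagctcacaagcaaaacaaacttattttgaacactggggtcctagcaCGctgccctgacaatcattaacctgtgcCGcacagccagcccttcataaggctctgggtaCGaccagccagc
Igfbp3, chr11:7213924-7214173, minus strand: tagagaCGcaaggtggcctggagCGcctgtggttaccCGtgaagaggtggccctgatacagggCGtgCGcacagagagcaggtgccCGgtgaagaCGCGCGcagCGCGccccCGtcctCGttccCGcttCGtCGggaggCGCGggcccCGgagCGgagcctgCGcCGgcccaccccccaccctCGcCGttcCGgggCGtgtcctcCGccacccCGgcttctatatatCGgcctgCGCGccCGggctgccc
Igfbp2, chr1:72824230-72824479, plus strand: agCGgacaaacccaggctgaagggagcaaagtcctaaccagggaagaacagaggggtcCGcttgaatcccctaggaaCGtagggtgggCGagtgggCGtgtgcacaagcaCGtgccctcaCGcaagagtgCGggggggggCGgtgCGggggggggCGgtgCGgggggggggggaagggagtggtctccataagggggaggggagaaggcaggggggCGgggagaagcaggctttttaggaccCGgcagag
Igfbp5, chr1:72874866-72875115, minus strand: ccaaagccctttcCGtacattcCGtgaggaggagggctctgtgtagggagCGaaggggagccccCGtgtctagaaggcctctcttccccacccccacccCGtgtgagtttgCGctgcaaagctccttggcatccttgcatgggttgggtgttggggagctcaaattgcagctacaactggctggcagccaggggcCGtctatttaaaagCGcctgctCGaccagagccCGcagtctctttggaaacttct
The Igfbp1 window held 5 CG dinucleotides and the Igfbp3 window 32, where the median over 32851 RefSeq promoter windows was 6. The Igfbp2 window shown held 14 and the Igfbp5 window 10. A further RefSeq window of Igfbp2 (72825137 to 72825386), not shown, held 11. In the Igfbp1 window the run CAAAACAAACTTATTTTG began 108 bases before the start. This run joins CAAAACA and TATTTTG with 4 letters between, the form of the known insulin response element of this gene, to which FoxO factors bind. Searched on both strands, CAAAACANNNNTATTTTG occurred in 0.00304% of all windows (1 of 32851) and in 1 of the 13 windows of the 9 members, CAAAACA alone in 5.56% and TATTTTG alone in 3.95%. These matches describe letters only.

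In WT mice Igfbp1 and Igfbp2 were read almost only in liver, the other members in all 4 tissues, and no member was highest in BAT. The 4 tissues were compared in 1 fit of the 20 WT libraries (17216 genes), and for each member the tissues were ordered by level and neighbours in that order tested. Of 27 neighbouring pairs, 16 differed at the call threshold (edgeR, Benjamini-Hochberg adjusted p under 0.01). Over all genes, the share called was 59.9% for BAT against iWAT, 66.9% for BAT against liver, 63.3% for BAT against muscle, 74.5% for iWAT against liver, 73.8% for iWAT against muscle and 73.7% for liver against muscle, so the count of 16 is no property of the family.

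Igf1, the growth hormone-responsive ligand, was highest in liver. Its 5 WT libraries held 580, 615, 665, 776 and 786 CPM in liver, 125, 157, 163, 168 and 195 in iWAT, 26.7, 37.5, 44.4, 86.0 and 87.2 in muscle, and 10.0, 14.0, 18.3, 21.8 and 32.7 in BAT. Each step down passed the test (2.08, 1.52 and 1.54 on the log2 scale), although the muscle and BAT libraries overlapped. Igf2, the fetal growth ligand, was transcribed at a low level in adults and ran in another order: 13.5 to 15.8 CPM in muscle, 8.35 to 9.82 in BAT, 3.46 to 9.92 in iWAT and 0.244 to 0.507 in liver. BAT and iWAT did not differ beyond their spread (log2 difference 0.30, adjusted p = 0.198), and liver was lower than iWAT by 4.33. The step from muscle to BAT was 0.71 (adjusted p = 0.00478), and it no longer passed when BAT replicate 2, 3 or 5 or muscle replicate 4 or 5 was left out (adjusted p up to 0.0129).

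Igfbp1 and Igfbp2 were liver genes. In liver Igfbp1 held 55.7 to 92.5 CPM, from 1596 to 2511 reads per library, while the 15 WT libraries of the other tissues had 0 or 1 read each. In BAT all 5 were at 0, which allows a level of up to 0.0803 to 0.099 CPM by the limit of 3 counts, covering counting error only. Igfbp2 held 246 to 380 CPM in liver and 0.0331 to 0.385 CPM in iWAT, a difference of 10.64 on the log2 scale, with 0 to 0.0959 CPM in BAT and muscle. Igfbp4, which mostly restrains IGF action, was also highest in liver (976 to 1463 CPM, mean 1247 ± 191, SD, n = 5), then in iWAT (156 to 325 CPM), muscle (35.7 to 46.8 CPM) and BAT (25.9 to 39.1 CPM). Muscle and BAT did not differ at the threshold, and the other steps passed.

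Igfbp5, an IGF-binding protein of matrix and of differentiating muscle, led in muscle (222 to 336 CPM) over iWAT (84.8 to 193 CPM), BAT (20.9 to 31.8 CPM) and liver (1.72 to 3.39 CPM), and each step passed. Igfbp6, which prefers IGF2, and Igfbp7, which binds IGFs weakly, both led in iWAT. Igfbp6 held 53.6 to 159 CPM there, 29.8 to 39.6 in muscle, 6.46 to 12.0 in BAT and 0.436 to 0.995 in liver, each step again passing. Igfbp7 held 169 to 240 CPM in iWAT, and muscle, BAT and liver lay together at means of 65.8, 64.9 and 64.7 CPM. Igfbp3 varied least between tissues, at 32.02 ± 9.995 CPM in iWAT, 27.97 ± 3.48 in BAT, 24.7 ± 6.20 in liver, with muscle lowest at 16.8 ± 2.20 (SD, n = 5). None of its neighbours differed at the threshold (iWAT over BAT 0.20, BAT over liver 0.18, liver over muscle 0.56 with adjusted p = 0.0116), while over muscle both iWAT (0.93, adjusted p = 0.000168) and BAT (0.74, adjusted p = 0.00181) passed. Liver over muscle passed, with adjusted p down to 0.00468, when iWAT replicate 1, 2 or 5, liver replicate 4 or 5 or muscle replicate 3 was left out. Scaling by library totals alone shifted the median log2 difference of all genes from -0.11 to -0.85 for BAT against iWAT, from 0.05 to 1.14 for iWAT against liver and from 0.23 to 1.21 for iWAT against muscle. It lowered the step from liver to iWAT to 1.00 for Igf1 and 1.35 for Igfbp4, raised that from iWAT to muscle to 2.51 for Igf1, 2.26 for Igfbp6 and 2.59 for Igfbp7, all still passing, and turned the direction of BAT over iWAT for Igf2 (-0.40) and of muscle over BAT for Igfbp7 (-0.22), neither of which had passed. Under it Igf2 in muscle over BAT (0.46, adjusted p = 0.0293) and Igfbp5 in muscle over iWAT (0.23, adjusted p = 0.247) no longer passed, whereas Igfbp3 in iWAT over BAT (0.93, adjusted p = 0.00022), Igfbp2 in iWAT over muscle (2.44, adjusted p = 0.00219) and Igfbp7 in BAT over liver (0.35, adjusted p = 0.00684) did.

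**Figure D1:**
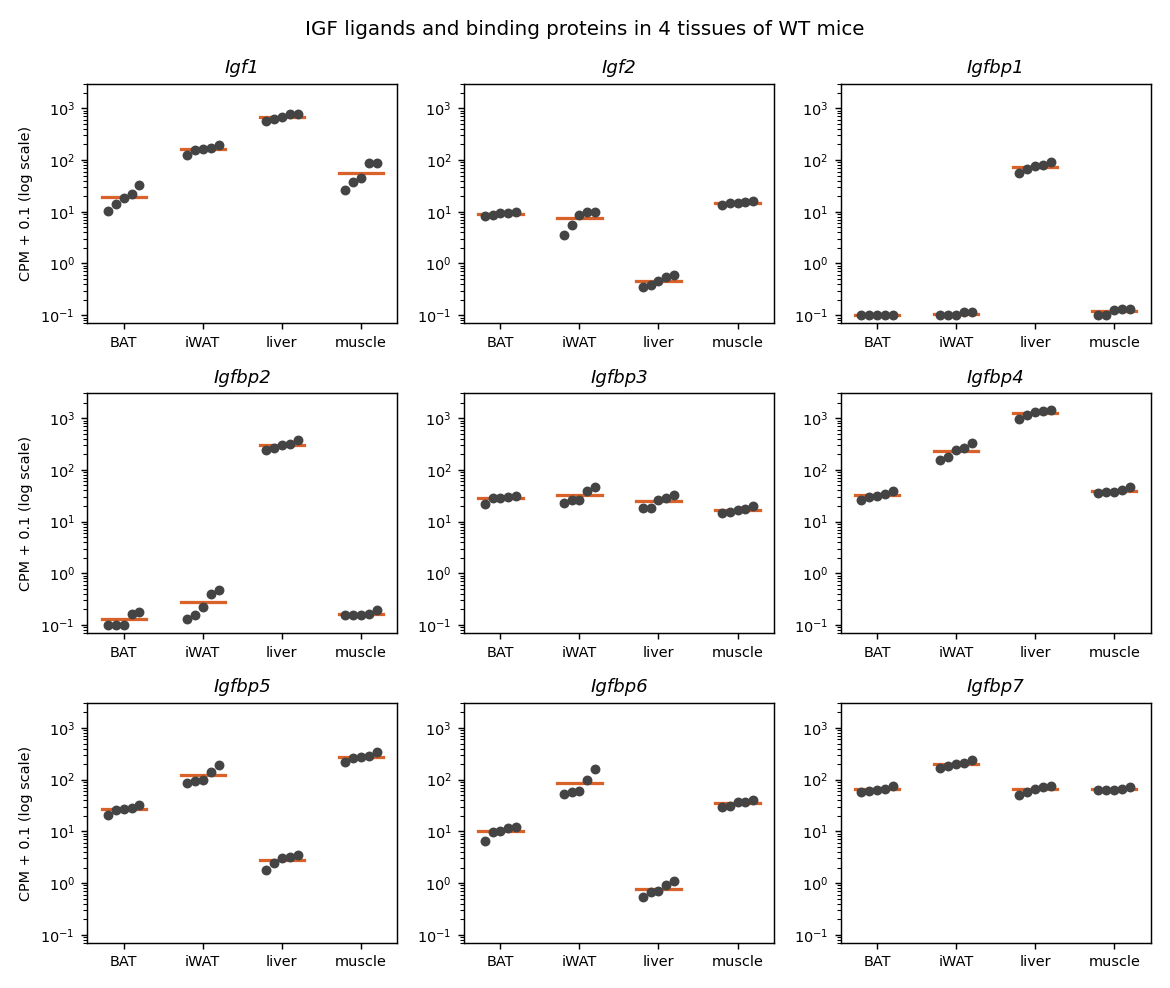
Level of the 9 IGF genes in the 4 tissues of WT mice, in CPM + 0.1 on a log axis; points are the 5 libraries of a tissue and the line is their mean. Igfbp1 and Igfbp2 stand far higher in liver than elsewhere, Igfbp5 leads in muscle, Igfbp6 and Igfbp7 in iWAT, and Igfbp3 varies least, with muscle lowest.

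Per kilobase of exon, which allows genes to be compared, Igfbp7 had the highest level of the 9 genes in BAT (53.6 ± 6.23 CPM per kb, SD, n = 5), iWAT (167 ± 22.1) and muscle (54.5 ± 3.25). In liver Igfbp4 led with 282 ± 43.3 CPM per kb, followed by Igfbp2 (164 ± 28.6), Igf1 (69.1 ± 9.41), Igfbp7 (53.5 ± 8.97) and Igfbp1 (48.6 ± 9.09). The exon lengths are those of GENCODE models. Levels in the comparisons of genotypes that follow were scaled within each tissue, so they are not on the scale of the WT comparison.

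In BAT, Igf2 and Igfbp3 were lower in UCP1 KO than in WT, and no member passed as higher. They were 2 of the 7 members tested in UCP1 KO against WT (Igfbp1 and Igfbp2 were too low), where 25.2% of all 15729 genes passed and 11.4% passed as lower, so the count by itself does not set the family apart. The median log2 change was -0.48 over the 7 members and 0.01 over all genes tested. Igf2 held 10.4, 9.24, 9.86, 9.82 and 8.80 CPM in WT, 8.13, 7.17, 7.13, 5.92 and 9.13 in FGF21 KO, 5.63, 5.50, 5.03, 4.73 and 4.58 in UCP1 KO, and 5.37, 5.15, 6.15, 6.90 and 6.19 in dKO. Every UCP1 KO library lay below every WT and FGF21 KO library, and the dKO libraries overlapped with FGF21 KO. The log2 change was -0.92 (SE 0.11, adjusted p = 6.93e-06) for UCP1 KO against WT and -0.33 (SE 0.11, adjusted p = 0.0297, not called) for dKO against FGF21 KO. The difference between these changes was -0.58 (SE 0.16, adjusted p = 0.758), which did not pass. FGF21 KO itself stood at 7.50 ± 1.21 CPM against 9.62 ± 0.609 in WT (log2 change -0.36, SE 0.11, adjusted p = 0.319).

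Igfbp3, the main carrier in serum, showed the larger change. Its WT libraries held 23.3, 29.7, 32.7, 30.6 and 31.3 CPM and those of UCP1 KO 15.1, 7.57, 6.42, 10.4 and 10.8 CPM, without overlap. FGF21 KO held 17.95, 16.6, 18.7, 19.2 and 36.1 CPM and dKO 4.70, 2.90, 9.55, 12.9 and 4.53 CPM, also without overlap, and FGF21 KO replicate 5 stood above every WT library. The log2 change was -1.56 (SE 0.33, adjusted p = 0.00113) in UCP1 KO against WT and -1.65 (SE 0.33, adjusted p = 0.00146) in dKO against FGF21 KO, and the difference between them was 0.10 (95% interval -0.87 to 1.06). In dKO against FGF21 KO, where 13.5% of all genes passed and 6.8% passed as lower, Igfbp3 was the 1 member called of 7. Both its calls and that of Igf2 in UCP1 KO against WT held in each of the 20 fits that left out 1 BAT library.

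Igf1 in BAT was not called in UCP1 KO against WT or in dKO against FGF21 KO. WT libraries held 14.8, 10.6, 22.9, 34.5 and 19.3 CPM, FGF21 KO 21.9, 15.7, 17.04, 17.8 and 17.8, UCP1 KO 13.8, 23.0, 8.64, 8.29 and 6.04, and dKO 6.07, 9.13, 12.2, 13.3 and 10.8. UCP1 KO replicates 1 and 2 lay within the WT range and the other 3 below it, while each dKO library lay below each FGF21 KO library. The log2 change was -0.78 (SE 0.32, adjusted p = 0.0622) in UCP1 KO against WT and -0.81 (SE 0.32, adjusted p = 0.0679) in dKO against FGF21 KO. Without UCP1 KO replicate 2 the first of these was -1.15 (adjusted p = 0.00495), and with only the 2 genotypes compared the second had an adjusted p of 0.00839. Groups that did not overlap were seen for 2 of 7 members in each comparison, against 23.5% of all genes in UCP1 KO against WT and 18.6% in dKO against FGF21 KO.

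The other members in BAT did not pass in UCP1 KO against WT or dKO against FGF21 KO. Igfbp5 stood at 28.2 ± 4.21 CPM in WT and 20.2 ± 7.53 in UCP1 KO (SD, n = 5; log2 change -0.48, adjusted p = 0.103), and Igfbp4 changed by -0.01. For Igfbp6, which fibroblasts make, UCP1 KO replicate 2 held 23.5 CPM and the other 4 libraries 4.03 to 7.89 CPM. That library also had the highest fibroblast score (6.29), macrophage score (5.80) and skeletal muscle score (9.76) of the 20.

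**Figure D2:**
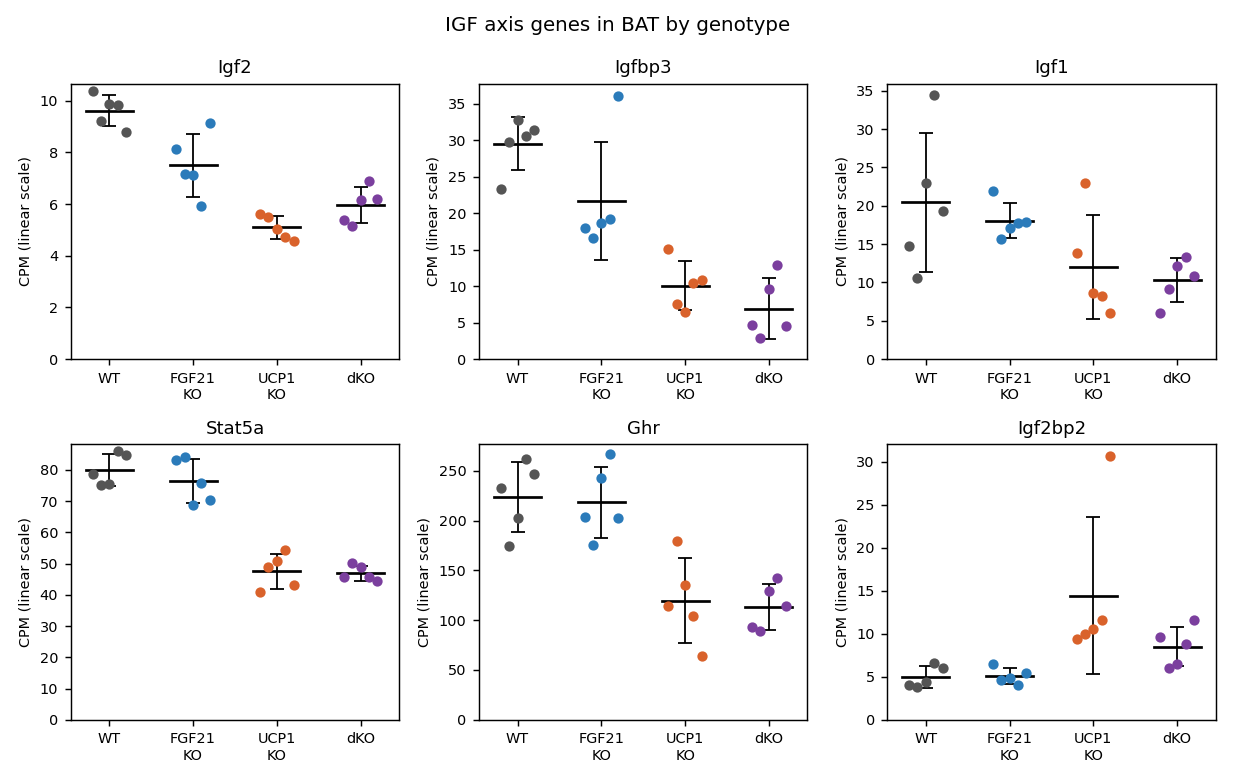
CPM in BAT of Igf2, Igfbp3, Igf1, Stat5a, Ghr and Igf2bp2 by genotype; points are libraries (5 per genotype), the line is the mean and the bar its SD, on linear axes. Igf2, Igfbp3 and Stat5a do not overlap between UCP1 KO and WT, and for Igf1 the WT range holds 2 of the UCP1 KO libraries.

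Some cell-type markers in BAT passed beside these genes, in counts to be read against the 25.2% and 13.5% of all genes. In UCP1 KO against WT, 4 of 5 macrophage and 5 of 10 skeletal muscle markers passed as higher, and 2 of 6 adipocyte, 2 of 6 smooth muscle and pericyte and 1 of 6 endothelial markers as lower. In dKO against FGF21 KO, 1 of 5 macrophage and 1 of 7 lymph node markers passed as higher, 1 of 6 adipocyte, 1 of 6 smooth muscle and pericyte and 1 of 6 endothelial markers as lower, and none of 10 skeletal muscle markers. Of 6 brown adipocyte markers, 1 passed as higher and 1 as lower in each comparison. The smooth muscle and pericyte score was 5.21 to 5.61 in WT, 4.74 to 5.25 in FGF21 KO, 4.24 to 5.14 in UCP1 KO and 4.37 to 5.08 in dKO, and the endothelial score was 6.67 to 6.95 in WT against 6.29 to 6.90 in UCP1 KO. The part of the macrophage, adipocyte, smooth muscle and endothelial markers in the lower Igf2 and Igfbp3 was not tested. With only the 15 BAT libraries of a muscle score of at most 6, chosen after seeing the data, the change in UCP1 KO against WT was -0.95 for Igf2 (adjusted p = 0.000124) and -1.29 for Igfbp3 (adjusted p = 0.000998), and in dKO against FGF21 KO, with 2 dKO libraries left, -2.53 for Igfbp3 (adjusted p = 0.000104).

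In iWAT, where the libraries labelled UCP1 KO held more brown adipocyte marker RNA (3 of 5 tested markers passed as higher) and more Ucp1 than WT, 0 of 8 tested members passed in UCP1 KO against WT by edgeR or DESeq2, and 3 had a raw p under 0.05 by edgeR, where 0.61% of all 17380 genes were called. The median log2 change of the 8 was -0.54, against -0.03 for all genes. Igfbp3 held 73.6, 37.9, 42.1, 66.6 and 42.1 CPM in WT and 20.4, 39.996, 16.4, 16.05 and 22.6 CPM in UCP1 KO. UCP1 KO replicate 2 lay within the WT range and the other 4 below it, and this was the UCP1 KO library with a high lymph node score (7.16). The log2 change was -1.18 (SE 0.35, 95% interval -1.93 to -0.43, adjusted p = 0.0868). Igfbp4 held 525, 398, 438, 302 and 255 CPM in WT and 341, 180, 192, 264 and 218 CPM in UCP1 KO (log2 change -0.68, SE 0.22, adjusted p = 0.124), so its groups overlapped as well. With the skeletal muscle score as covariate the changes were -1.18 for Igfbp3 (adjusted p = 0.0974) and -0.68 for Igfbp4 (adjusted p = 0.149).

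Levels in iWAT differed with the lymph node score, whose part in the comparisons was read from other fits. Igfbp2 held 0.496 to 2.70 CPM in the 9 libraries of high score and 0 to 0.337 CPM in the other 11, without overlap. FGF21 KO replicate 4, which held the 2.70 CPM, also had the highest hepatocyte score in iWAT (4.58), whose part was not tested. Igf2 held 2.94 to 9.26 CPM in the libraries of high lymph node score and 5.73 to 16.2 CPM in the others. Igfbp3 ran the other way, with 39.996 to 73.3 CPM at high score and 16.05 to 73.6 CPM (median 22.6) otherwise. The split was uneven by genotype, with 4 UCP1 KO libraries among the 11 of low score and 1 among the 9 of high score. The WT libraries of low score held 37.9 to 73.6 CPM of Igfbp3, so these ranges do not separate the score from genotype. With the score as a covariate, Igfbp3 (log2 change -1.11, adjusted p = 0.00934) and Igfbp4 (-0.79, adjusted p = 0.00298) passed in UCP1 KO against WT. With only the 11 libraries of low score, a choice made after seeing the data, they stood at -1.45 (adjusted p = 0.0135) and -0.85 (adjusted p = 0.0251) and did not pass.

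**Figure D3:**
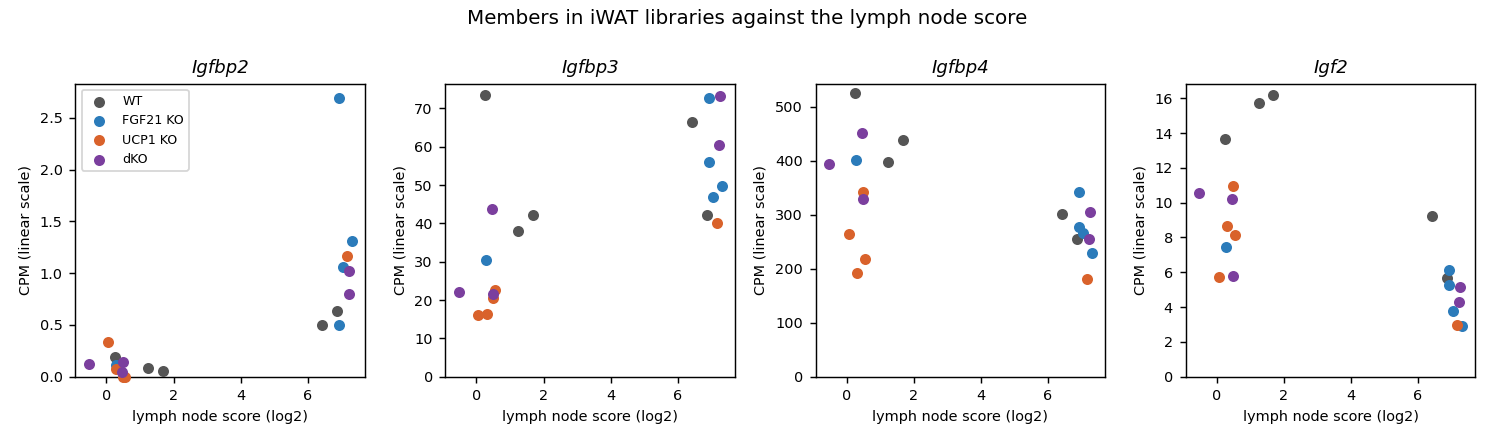
CPM of Igfbp2, Igfbp3, Igfbp4 and Igf2 in the 20 iWAT libraries against the lymph node score of the library, the mean log2(CPM + 0.1) of B and T cell markers; points are libraries, coloured by genotype. The 9 libraries at scores of 6.41 to 7.32 all hold more Igfbp2 than the other 11.

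Whether the response differed between the depots was tested directly over the 40 fat libraries. The test of the BAT change minus the iWAT change called 0 of 8 members by edgeR and by DESeq2, 1 with a raw p under 0.05 by edgeR, and 6.19% of all genes. That 1 was Igfbp4 (difference 0.68, SE 0.27, adjusted p = 0.0905). For Igfbp3 the difference was -0.38 (SE 0.50, adjusted p = 0.685) and for Igf2 -0.17 (SE 0.38, adjusted p = 0.822). In dKO against FGF21 KO in iWAT, 0 of 8 members passed by edgeR or DESeq2 and 0 had a raw p under 0.05, where 0.0115% of all genes were called. Igfbp3 held 56.0, 30.4, 49.8, 72.7 and 46.9 CPM in FGF21 KO and 73.3, 43.7, 60.5, 21.97 and 21.5 CPM in dKO (log2 change -0.21, SE 0.35), and the dKO libraries covered the FGF21 KO range in full.

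**Figure D4:**
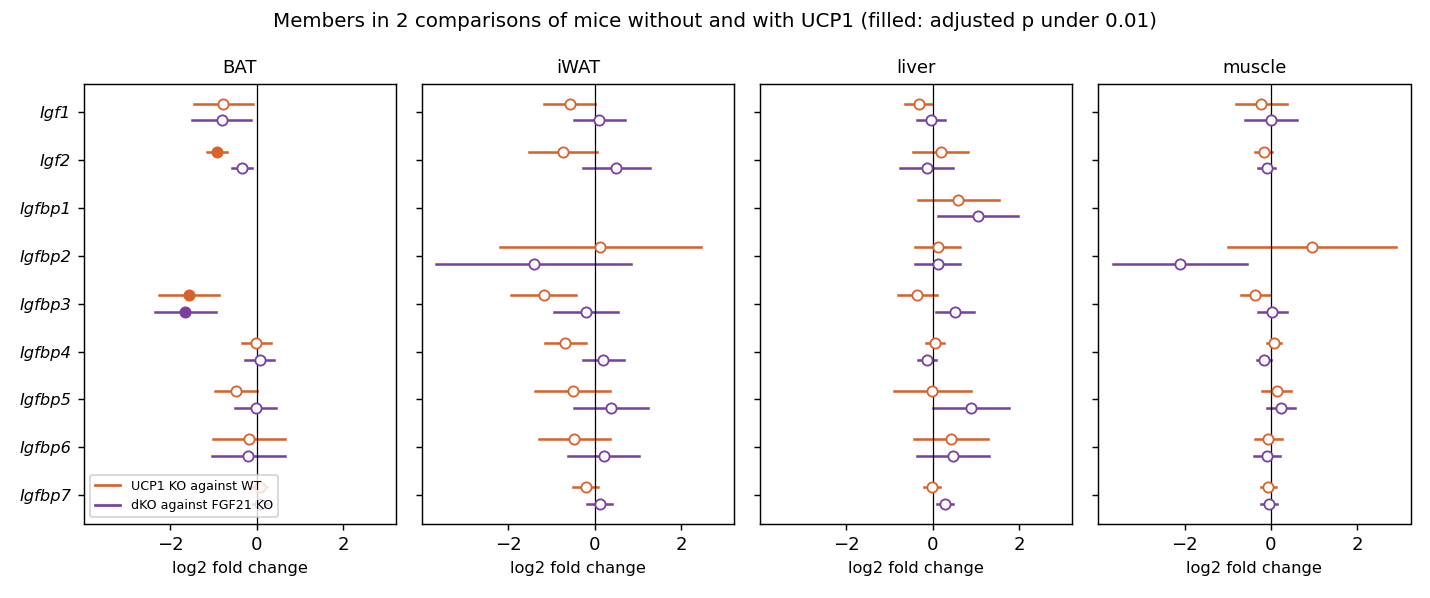
Log2 fold change of the members in UCP1 KO against WT and in dKO against FGF21 KO, by tissue, with 95% intervals; filled points passed an adjusted p of 0.01 (edgeR, 5 libraries per group). Igf2 and Igfbp3 in BAT are filled for UCP1 KO against WT, and only Igfbp3 in BAT for dKO against FGF21 KO.

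In liver all 9 members were tested, and 0 passed in any comparison of genotypes by edgeR or DESeq2. In UCP1 KO against WT 1 had a raw p under 0.05, where 0.0694% of all 14407 genes were called. That 1 was Igf1, with 473, 600, 600, 506 and 450 CPM in WT and 543, 511, 358, 336 and 337 CPM in UCP1 KO. Of the UCP1 KO libraries 3 lay below the WT range and 2 within it (log2 change -0.33, SE 0.15, adjusted p = 0.446). Igfbp2 stood at 233 ± 41.6 CPM in WT and 252 ± 69.2 in UCP1 KO (log2 change 0.11), and Igfbp4 at 957 ± 145 and 990 ± 59.9 CPM (log2 change 0.05; SD, n = 5).

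Igfbp1, the liver gene linked to FGF21 and insulin, varied widely within genotypes. WT libraries held 42.8, 60.4, 71.5, 58.2 and 51.5 CPM and FGF21 KO libraries 14.5, 26.7, 31.8, 18.3 and 35.5 CPM. All 5 FGF21 KO libraries lay below all 5 WT libraries, a log2 change of -1.16 (SE 0.44, 95% interval -2.11 to -0.22, adjusted p = 0.529). Not overlapping were 1 of 9 members, Igfbp1, and 1.56% of all genes in this comparison, in which 0.229% were called and 3 members had a raw p under 0.05. Of the 33 genes called, 8 were skeletal muscle markers, lower in FGF21 KO (8 of 10 tested), and their score was 1.70 to 3.79 in WT against 0.91 to 1.84 in FGF21 KO. With this score as covariate the change of Igfbp1 was -0.77 (SE 0.75, adjusted p = 0.999). Because the score overlapped little between these genotypes, that fit separates it poorly from genotype, and no conclusion is drawn from it.

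UCP1 KO libraries held 46.3, 109, 24.0, 139 and 110 CPM of Igfbp1 and dKO libraries 44.6, 15.4, 43.8, 117 and 40.9 CPM. Both spanned the WT range in full, and dKO replicate 4 stood far above the other dKO libraries. The log2 change was 0.59 (SE 0.44, adjusted p = 0.669) in UCP1 KO against WT and 1.04 (SE 0.44, adjusted p = 0.707) in dKO against FGF21 KO. In the latter comparison 4 members had a raw p under 0.05, and 0.00694% of all genes were called. Igfbp7 was the 1 of 9 members whose libraries did not overlap there, against 1.09% of genes (43.8 to 52.6 CPM in dKO and 37.6 to 43.3 in FGF21 KO; log2 change 0.28, adjusted p = 0.553). Of 9 genes of insulin and FoxO signalling and of the stress response read beside Igfbp1 (Foxo1, Foxo3, G6pc, Pck1, Ppargc1a, Srebf1, Atf4, Ddit3 and Trib3), 0 passed in liver by edgeR or DESeq2 in UCP1 KO against WT, dKO against FGF21 KO or FGF21 KO against WT (2, 2 and 1 with a raw p under 0.05 by edgeR).

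**Figure D5:**
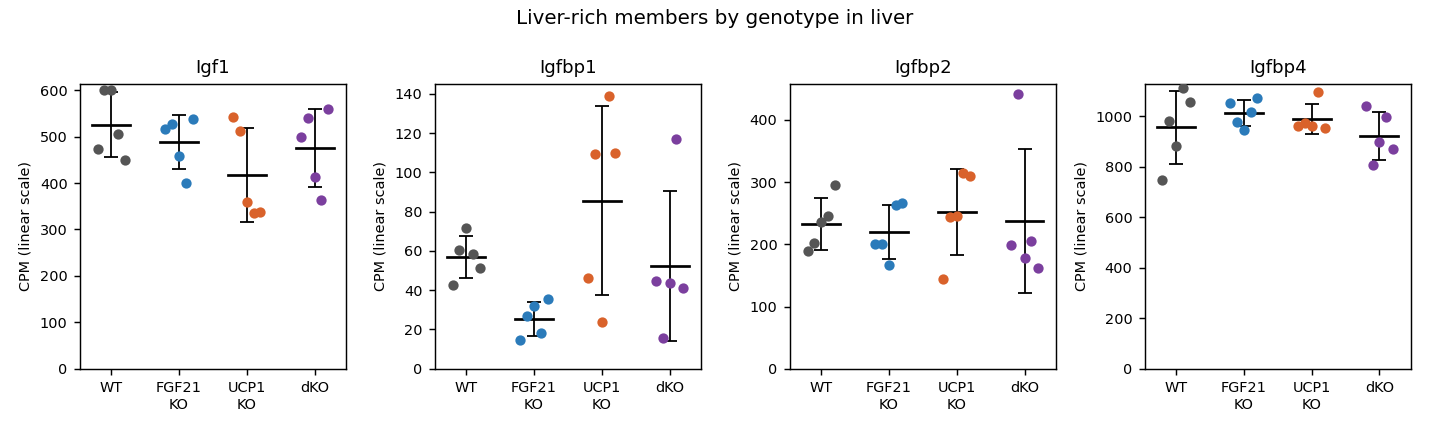
CPM in liver of Igf1, Igfbp1, Igfbp2 and Igfbp4 by genotype; points are libraries (5 per genotype), the line is the mean and the bar its SD, on linear axes. Igfbp1 in FGF21 KO lies below all WT libraries, and dKO replicate 2 stands apart for Igfbp2.

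In muscle 8 members were tested (Igfbp1 was too low) and 0 passed in any comparison by edgeR or DESeq2. In UCP1 KO against WT, where 0.0265% of all 15114 genes were called, 1 had a raw p under 0.05, Igfbp3. It was also the 1 member without overlap (1.95% of all genes), at 12.1 to 16.8 CPM in WT and 10.0 to 11.2 CPM in UCP1 KO (log2 change -0.36, SE 0.16, adjusted p = 0.465). Igfbp5, the binding protein gene with its highest WT level in muscle, stood at 231 ± 35.0 CPM in WT and 252 ± 50.8 in UCP1 KO (log2 change 0.13, adjusted p = 0.824). In dKO against FGF21 KO, 2 members had a raw p under 0.05 and 0.0595% of all genes were called.

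Igf1 in muscle held 31.2, 22.1, 36.9, 70.8 and 71.5 CPM in WT. Replicates 4 and 5 stood high, and their adipocyte scores of 5.50 and 4.92 lay above those of the other WT libraries (4.01 to 4.55). FGF21 KO libraries had scores of 4.31 to 5.03, and the part of adipocyte RNA in these levels was not tested. In FGF21 KO against WT 5 members had a raw p under 0.05 and 0.00662% of all genes were called. Igf1 stood at 19.02 to 38.1 CPM in FGF21 KO (log2 change -0.86, SE 0.28, adjusted p = 0.162), overlapping with WT.

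No member passed where FGF21 alone differed. In UCP1 KO against dKO, which sets FGF21 present against absent in mice without UCP1, edgeR and DESeq2 called 0 of 32 member-by-tissue tests (6 with a raw p under 0.05 by edgeR). The share of all genes called was 0.466% for iWAT, 0.0636% for BAT, 0 for muscle and 0.00694% for liver. For Igfbp3 in BAT the difference was 0.54 (95% interval -0.15 to 1.23, adjusted p = 0.502). Without the 5 BAT libraries of high skeletal muscle score, with 3 UCP1 KO and 2 dKO libraries left, it was 1.69 (adjusted p = 0.00966) and passed, an alternative added after seeing the data. FGF21 KO against WT also called 0 of 32 by both tools (12 with a raw p under 0.05 by edgeR), with 0 of all genes called in BAT and 0.00575% in iWAT. In iWAT, Igfbp7 held 225 to 252 CPM in FGF21 KO and 277 to 392 CPM in WT without overlap (1 of 8 members and 2.71% of genes), a log2 change of -0.48 (adjusted p = 0.225), while 4 FGF21 KO and 2 WT libraries had a high lymph node score. The difference between the UCP1 effects with and without FGF21 called 0 of 32 by both tools (7 with a raw p under 0.05 by edgeR) and 0 of all genes in each tissue.

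The remaining comparisons share libraries with those above. In BAT, dKO against WT called Igf2 (log2 change -0.69, adjusted p = 0.000133) and Igfbp3 (-2.10, adjusted p = 0.000139), 2 of 7 members beside 21.1% of all genes, and DESeq2 called Igf1 as well (-0.98, adjusted p = 0.00784). UCP1 KO against FGF21 KO called Igf2 alone (-0.56, adjusted p = 0.000761), 1 of 7 beside 22.4% of all genes. There Igfbp3 had an adjusted p of 0.0119 (-1.11), which fell to as low as 0.00494 when UCP1 KO replicate 1 or dKO replicate 2 or 4 was left out, and DESeq2 called Igfbp3 and Igfbp7 besides Igf2. Neither comparison called a member in iWAT, liver or muscle by either tool, where 0.0173%, 0.0416% and 0.0529% of all genes passed in dKO against WT and 3.76%, 0.0972% and 0.0265% in UCP1 KO against FGF21 KO. By edgeR, 1 member in iWAT, 0 in liver and 4 in muscle had a raw p under 0.05 in the former, and 1, 2 and 3 in the latter. Over all 4 genotypes, Igf2 (adjusted p = 1.38e-05) and Igfbp3 (adjusted p = 0.000148) in BAT were the 2 calls among 32 tests, beside 29.7% of all genes in BAT, 1.74% in iWAT, 0.34% in liver and 0.086% in muscle.

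Around the members, a list of 34 further genes of the IGF and growth hormone pathway was read in the same fits. In UCP1 KO against WT, 6 of 27 tested in BAT passed, 3 lower and 3 higher, close to the 25.2% of all genes, and DESeq2 also called H19 (4.63) and Jak2 (0.37) as higher and Igfals (-1.27) as lower. None of 30 in iWAT, 25 in liver and 30 in muscle passed by edgeR in either comparison, and by DESeq2 only Igf1r in muscle in UCP1 KO against WT did, with 3, 2 and 5 at a raw p under 0.05 by edgeR in UCP1 KO against WT and 4, 3 and 5 in dKO against FGF21 KO. With the lymph node score as covariate, Grb10 in iWAT passed in UCP1 KO against WT (log2 change -0.56, adjusted p = 0.00295). In dKO against FGF21 KO in BAT, where 13.5% of all genes passed, edgeR called 2 of 27, Ghr and Stat5a, both lower. DESeq2 called these and, besides, Igfals as lower and Grb10, H19 and Stc1 as higher. Calls by DESeq2 and not edgeR elsewhere included Stc1 in iWAT in UCP1 KO against FGF21 KO (log2 change -1.58, adjusted p = 0.00447). They also included Ghr in muscle in UCP1 KO against dKO (-0.19, adjusted p = 0.00871) and Pappa in BAT over all 4 genotypes (adjusted p = 0.00749).

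Of 7 tested genes of the growth hormone arm (Ghr, Jak2, Stat5a, Stat5b, Socs2, Cish and Bcl6), Stat5a and Ghr passed in both comparisons, each lower. Stat5a, a transcription factor that carries the growth hormone signal, held 75.1 to 85.9 CPM in WT, 68.6 to 84.2 in FGF21 KO, 40.8 to 54.3 in UCP1 KO and 44.3 to 50.04 in dKO. Neither UCP1-deficient group overlapped with WT or FGF21 KO (log2 change -0.75, adjusted p = 2.19e-06 in UCP1 KO against WT, and -0.70, adjusted p = 7.74e-06 in dKO against FGF21 KO). Ghr, the growth hormone receptor, held 175 to 262 CPM in WT, 176 to 266 in FGF21 KO, 63.7 to 180 in UCP1 KO and 88.7 to 143 in dKO. It changed by -0.91 (adjusted p = 0.00207) and -0.94 (adjusted p = 0.00281), and the second call was lost without FGF21 KO replicate 4 (adjusted p = 0.0103). With only the 2 genotypes compared, the first had an adjusted p of 0.0146. Jak2, the kinase bound to the receptor, passed by edgeR as higher in UCP1 KO against FGF21 KO only (0.47, adjusted p = 0.00368), a call lost without UCP1 KO replicate 4 or 5 (adjusted p up to 0.012).

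Igf2bp2, an RNA-binding protein that takes Igf2 mRNA among its targets, rose in UCP1 KO. It held 3.79 to 6.64 CPM in WT and 9.33 to 30.6 CPM in UCP1 KO, without overlap (log2 change 1.53, adjusted p = 0.000574), and 6.04 to 11.6 CPM in dKO against 4.01 to 6.53 CPM in FGF21 KO (0.74, adjusted p = 0.0668). Timp1, an inhibitor of the metalloproteases that can cleave binding proteins, rose by 1.43 (adjusted p = 0.00362) from a mean of 0.571 to 1.55 CPM. That call was lost without WT replicate 1, 2 or 3 or UCP1 KO replicate 2 (adjusted p up to 0.0124). Htra1, a protease that can cleave IGFBP5, fell by 0.42 on the log2 scale (adjusted p = 0.00526), lost without WT or UCP1 KO replicate 1, 3 or 4 (adjusted p up to 0.0174 for Htra1). Grb10, an imprinted adaptor that restrains the insulin and IGF1 receptors, was called barely (0.60, adjusted p = 0.00985) and stayed called only without UCP1 KO replicate 1 or dKO replicate 2 or 4, that is in 3 of 20 such fits.

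Igfals, the acid-labile subunit, passed in dKO against WT (log2 change -1.67, adjusted p = 0.00426) with 1.36 to 2.08 CPM in dKO and 1.83 to 7.94 CPM in WT, and was lost without WT replicate 3, 4 or 5 or dKO replicate 1, 2 or 3 (adjusted p up to 0.014). H19, the noncoding RNA imprinted together with Igf2, differed over all 4 genotypes (adjusted p = 0.00742), a call kept in 8 of 20 fits without 1 library and lost without any 1 WT library, FGF21 KO replicate 1, 2, 3 or 4 or dKO replicate 1, 3 or 4 (adjusted p up to 0.0156). It held 0.869 to 1.43 CPM in WT and 116 CPM in UCP1 KO replicate 2 and 50.5, 42.7 and 95.5 CPM in dKO replicates 1, 3 and 4. These 4 libraries had skeletal muscle scores of 8.56 to 9.76.

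Of the receptor genes Igf1r, Igf2r, Insr and Insrr, none passed in any comparison of genotypes by edgeR, with 22 of 112 tests at a raw p under 0.05, while DESeq2 called Igf1r in muscle in UCP1 KO against WT and Igf2r in BAT in dKO against WT. In WT, Igf1r held a mean of 22.8 CPM in muscle, 20.6 in iWAT, 14.5 in BAT and 4.10 in liver, and Insr, the insulin receptor, 233 in liver, 150 in muscle, 121 in BAT and 94.9 in iWAT. Igf2r, which clears IGF2, held 140 CPM in muscle, 83.5 in BAT, 77.7 in liver and 67.2 in iWAT. In muscle, Igf1r stood at a mean of 14.7 CPM in UCP1 KO and 18.8 CPM in WT without overlap (log2 change -0.36, adjusted p = 0.0322 by edgeR and 0.000296 by DESeq2).

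For 8 of the members, the genes most like each over the 20 libraries of the tissue where it was highest were picked by the correlation of log2 CPM, as a description. Igfbp6 in iWAT ran with Ecm1 (r = 0.99), Emilin2 (0.97) and Clec3b (0.97), and Igfbp3 in iWAT with Iffo1 (0.91), Tmem132c (0.90) and Vtn (0.90). Igf2 in muscle ran with Tek (0.90), which encodes an endothelial receptor, Itpripl1 (0.84) and Pcdh17 (0.84), and Igfbp7 in iWAT with Grip2 (0.90), Hsd17b11 (0.89) and B4galt4 (0.89). In liver the closest genes were Tmx4 (0.82), Slc40a1 (0.81) and Urad (0.80) for Igf1, Cep95 (0.76), Serpina3h (0.75) and Pan3 (0.75) for Igfbp1, Slc6a13 (0.75), Mef2d (0.75) and Dact2 (0.74) for Igfbp2, and Lrp3 (0.83), Agpat1 (0.83) and H2afj (0.82) for Igfbp4. Without the 2 libraries farthest from the median, r of Igfbp2 with Slc6a13 was 0.50 and that of the other pairs named 0.68 to 0.97. The libraries of a correlation share genotype, depth and any RNA of other tissues, including the lymph node marker RNA of iWAT.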

How the data were processed

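Gene counts came from strand-specific poly(A) RNA sequencing of 80 libraries, 5 per genotype and tissue, whose replicate numbers follow accession order and pair nothing. The authors aligned reads to mm10 with STAR and counted reads per gene with HTSeq, and the deposited values are raw counts; the strand setting of the counting is not given in the sources used here, so counts of Igf1, Igf2 and Igfbp7, which overlap other genes (Igf1os, Igf2os and Mir483, and Polr2b), may include some of their reads. A single row naming no gene (1.32e-05% of counts) was left out.

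Each tissue was fitted alone with its 20 libraries in edgeR 4.0.16 (R 4.3.3; quasi-likelihood F test, TMM factors, 1 mean per genotype), after the study's filter (genes kept whose highest count exceeded 15 and whose total exceeded 75, with at most 10 libraries at 0). P-values were Benjamini-Hochberg adjusted over the genes tested in the tissue and called under 0.01. WT tissues were compared in a fit of 20 WT libraries and fat depots in a fit of 40, with at most 15 and 20 libraries at 0. Intervals are 95% intervals of the fits. CPM are counts over the TMM-scaled total, times 1000000, log2 CPM with a prior count of 2. Alternatives were DESeq2 1.42.0, RLE size factors, other filters, marker scores as covariates, only the genotypes compared, and leaving out each library. On simulated data for UCP1 KO against WT with 200 genes changed by 1.5 to 4 fold, edgeR recovered 74% in BAT (15729 genes, 0 wrong calls) and 40.5% in iWAT (17380 genes, 2 wrong calls), and DESeq2 79% (11 wrong) and 51.5% (13 wrong). For 4-fold changes edgeR recovered 91.3% in BAT and 76.5% in iWAT, and for 1.5-fold changes 53.2% and 6.45%, so small changes in iWAT would mostly be missed. Totals of 28691377 to 50380696 counts per library put 1 read at 0.0198 to 0.0349 CPM before TMM scaling, which limits Igfbp1 and Igfbp2 outside liver. Promoter sequences are from RefSeq (GRCm38.p6), matched by symbol for 9 of 9 members; gene positions and exon lengths are from GENCODE on GRCm38. Protein sequences were not used here. The 9 members are always named; of the other pathway genes those called in any comparison and the receptors, and for each member the 3 most correlated genes. The list of liver genes is given without 1 gene first placed in it, and the correlated genes of Igfbp5 are not reported here. The members, lists and scores were chosen with earlier results of these data known.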

Additional observations from a re-analysis of the deposited data

Results flagged for a closer look

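Among 128 groups of 5 libraries with a member's level, 11 had a highest or lowest library whose gap to the nearest other exceeded 0.71 of the group's range; chance alone sets apart about 1 in 20 groups. In BAT, Igfbp3 stood at 36.1 CPM in FGF21 KO replicate 5 (other 4 libraries 16.6 to 19.2) and Igfbp6 at 23.5 CPM in UCP1 KO replicate 2 (others 4.03 to 7.89). In iWAT, Igf1 stood at 369 CPM in FGF21 KO replicate 2 (others 132 to 197), Igfbp3 at 39.996 CPM in UCP1 KO replicate 2 (others 16.05 to 22.6) and Igfbp7 at 352 CPM in dKO replicate 4 (others 217 to 251). FGF21 KO replicate 2 was the 1 library of its group with a low lymph node score, and UCP1 KO replicate 2 the 1 of its group with a high one.

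In liver, dKO replicate 2 stood apart for Igfbp2, with 442 CPM (others 163 to 205), and for Igfbp5, with 8.32 CPM (others 1.73 to 3.21). Igfbp1 stood at 117 CPM in dKO replicate 4 (others 15.4 to 44.6) and Igfbp4 at 1096 CPM in UCP1 KO replicate 4 (others 954 to 975.5). In muscle, Igfbp7 stood at 58.8 CPM in FGF21 KO replicate 5 (others 41.4 to 43.7), and Igfbp2 at 0.0799 CPM in WT replicate 3 (others 0.0464 to 0.0524), a level of 2 to 3 reads.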

How the results depend on the processing

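No call changed direction under any alternative run in the comparisons of genotypes. Of the counts of calls, 71 of 78 stayed within 1.5 times their value under another setting, and 598 of 600 when 1 library was left out. For the members, UCP1 KO against WT went from 2 to 4 calls with the lymph node score as covariate (Igfbp3 and Igfbp4 in iWAT), dKO against FGF21 KO from 1 to 2 with only the 2 genotypes compared and 2 at an adjusted p under 0.05, and UCP1 KO against dKO from 0 to 1 with only BAT libraries of a skeletal muscle score of at most 6. The other pathway genes in UCP1 KO against WT went from 6 calls to 10 with DESeq2, 2 with only the 2 genotypes compared and 11 at an adjusted p under 0.05. Leaving out 1 library gave 2 to 3 member calls for UCP1 KO against WT and over all 4 genotypes (3 without BAT UCP1 KO replicate 2, Igf1 in BAT being the added call), 1 for dKO against FGF21 KO, 0 for UCP1 KO against dKO, FGF21 KO against WT, the difference of the UCP1 effects and the depots, 15 to 17 for the WT tissues, and 3 to 10 for the other pathway genes (3 without BAT WT replicate 3 and 10 without BAT UCP1 KO replicate 1). DESeq2 gave the same number of member calls in these comparisons. With a prior count of 0.5, 16 of 144 mean log2 levels moved beyond 1 SD, all of Igfbp1 or Igfbp2 outside liver, where reads are few. The causes of these changes were not tested. No paired analysis was possible because the labels number no replicates and tie no libraries to a mouse; replicate numbers used here only name libraries.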
